A study of Mus musculus with 51 samples.

Results

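The 10 clade A serpins described here are genes of secreted proteins that mouse liver makes in large amounts: the copies Serpina1a, Serpina1b, Serpina1c, Serpina1d and Serpina1e, the copies Serpina3k, Serpina3m and Serpina3n, and the single genes Serpina6 and Serpina10. They were taken by name as 10 of the 33773 genes of the deposited RPKM matrix (reads per kilobase of gene, scaled to the size of the library), in all 21 RNA libraries of 6 groups. The study asked what adult mouse hepatocytes express once the FoxA factors FoxA1, FoxA2 and FoxA3, forkhead proteins that open liver chromatin, are taken away. RNA came from hepatocytes in 15 libraries and from liver in 6.

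The FoxA triple null group (4 libraries) came from mice with floxed Foxa1, floxed Foxa2 and a germline loss of Foxa3. They received, at 8 weeks of age, an AAV8 virus carrying Cre under the Tbg promoter, which is active in hepatocytes. The FoxA3 null group (4 libraries) had the same transgenes and an AAV with GFP in place of Cre, as the design text describes its controls, so both groups lacked FoxA3 and both had received a virus. The FoxA1/A2 lox group (3 libraries, here lox) carried the floxed alleles without a deletion. Its matrix columns are named for FoxA1/A2 and a number, without the word lox, while those of the Cre alfp group carry its Cre name. They were taken as lox on that ground, and every comparison with lox rests on this match. The FoxA1/A2 Cre alfp group (4 libraries, here Cre alfp) is labelled as deleted for FoxA1 and FoxA2 by another Cre, with FoxA3 present. Liver with HNF4a, a nuclear receptor and major activator of hepatocyte genes, removed in the adult (4 libraries labelled HNF4a null) was set against 2 HNF4a control libraries. The age at injection is stated for the triple null; the age of the mice in the FoxA3 null, lox, Cre alfp and HNF4a groups was not given in the sources used here.

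Serpins trap a target protease with an exposed loop that the protease cuts, after which the serpin changes shape and holds the enzyme covalently. Mouse Serpina1 copies correspond to human alpha-1-antitrypsin, the plasma inhibitor of neutrophil elastase, and the Serpina3 copies correspond to human alpha-1-antichymotrypsin. Serpina3n is known as an acute phase gene and as an inhibitor of granzyme B. Serpina6 encodes corticosteroid-binding globulin, a hormone carrier that no longer inhibits proteases, and Serpina10 encodes the protein Z-dependent inhibitor of coagulation factor Xa. In the reference gene table all 10 genes lie on chromosome 12 in 1 cluster, in the order Serpina10, Serpina6, Serpina1b, Serpina1d, Serpina1a, Serpina1c, Serpina1e, Serpina3k, Serpina3m, Serpina3n, with other clade A genes between them. The Serpina1 copies share reads with each other, as do the Serpina3 copies, and how such reads were assigned was not given in the sources used here. Values of single copies are therefore uncertain, and the sum over each set of copies is given for each comparison of a pair of groups.

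The promoters of the Serpina1 copies are shown because these neighbours, which behaved differently below, hold nearly the same sequence around or before their annotated starts. RefSeq windows for 6 of the 10 members were matched (Serpina1a to Serpina1e and Serpina3n), each holding 250 bases before and 50 bases after the gene start. Over the 10 pairs of Serpina1 windows the identity was 91.4% to 97.6% of the aligned columns, of which a pair had 239 to 300. The lines below give 100 bases of each (build GRCm38.p6, minus strand, 5′ to 3′), with TGTTTGC, a forkhead-type motif, and GTTAAT, an HNF1-type motif, in capitals.
Serpina1b, chr12:103738182-103738281: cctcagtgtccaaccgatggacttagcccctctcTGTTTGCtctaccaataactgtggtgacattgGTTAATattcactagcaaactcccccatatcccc
Serpina1d, chr12:103773616-103773715: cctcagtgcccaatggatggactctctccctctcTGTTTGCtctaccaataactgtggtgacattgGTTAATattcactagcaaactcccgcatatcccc
Serpina1a, chr12:103863607-103863706: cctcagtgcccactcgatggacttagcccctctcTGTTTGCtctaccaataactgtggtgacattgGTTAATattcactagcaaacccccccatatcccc
Serpina1c, chr12:103904944-103905043: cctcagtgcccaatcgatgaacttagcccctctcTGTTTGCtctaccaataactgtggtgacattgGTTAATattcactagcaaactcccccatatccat
Serpina1e, chr12:103956942-103957041: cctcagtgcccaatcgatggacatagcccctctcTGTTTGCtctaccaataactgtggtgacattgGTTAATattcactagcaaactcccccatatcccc
Any pair of these stretches differed at 3 to 9 of the 100 bases, and both marked motifs, with the bases between them, are the same in all 5. The stretches are aligned on the motifs, not on the start. TGTTTGC began at -53 in Serpina1a, -58 in Serpina1b, -59 in Serpina1c and -48 in Serpina1d, counted from the RefSeq start of each gene, but at -110 in Serpina1e, whose stretch ends before its annotated start. TGTTTGC was added to the search after the sequences had been seen and occurred in 5.07% of all 32851 RefSeq windows, searched on both strands. GTTAAT occurred in 7.1% of them. TTGCNNAA, a C/EBP-type motif, was found in the windows of Serpina1a, Serpina1b, Serpina1d and Serpina1e and in 10.8% of all windows. The letters TGTTTAC and TATTTAC (FoxA; 3.65% and 3.04% of all windows), CAAAGTC (HNF4a; 4.44%) and TTCNNNGAA (STAT; 8.3%) were in no member window, and the Serpina3n window held none of the letters searched. These are matches of letters, not measured binding.

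The values of the targeted genes fitted the FoxA labels for Foxa3 and Foxa2, and in part for Foxa1. Foxa3 was at 0 to 0.0114 RPKM in the FoxA3 null and triple null libraries, Foxa2 averaged 0.366 RPKM ± 0.103 (SD, n = 4) in the triple null against 13.7 ± 4.58 in the FoxA3 null libraries, and Foxa1 averaged 3.28 against 8.50 RPKM (log2 difference -1.13 ± 0.16 SE, limma adjusted p = 0.00011). Foxa1 in the triple null differed from lox by -0.82 ± 0.17 SE (limma adjusted p = 0.00166), less than the minimum of 1 used for calls below, and lay above Cre alfp by 0.94 ± 0.16 SE (limma adjusted p = 0.000403). In Cre alfp against lox, Foxa1 averaged 1.24 against 6.72 and Foxa2 averaged 1.09 against 12.5 RPKM. In the libraries labelled HNF4a null the Hnf4a RNA went against the label, at 487 to 545 RPKM against 118 and 126 RPKM in the controls. A value per gene cannot separate RNA of a deleted allele from intact RNA. The 7 lox and Cre alfp libraries stood apart from the 8 FoxA3 null and triple null libraries: 1277 of the tested genes (11.1%) did not overlap between these sets, none of the 10 serpins among them. Of 10 hepatocyte marker genes, none was under 1 RPKM throughout any group. Their summed level was 17495 to 23948 RPKM for the triple null and 39140 to 50106 RPKM for the FoxA3 null group, and the part of this shift in the serpin results was not tested. The matrix keeps no absolute depth. Relative depth, estimated from the smallest steps between low values, was 2.01 to 4.06 times that of the shallowest library in the hepatocyte and 1 to 1.10 times in the liver libraries, so low values are less precise in liver. In bulk RNA, fewer hepatocytes and less RNA per hepatocyte cannot be told apart.

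RPKM is per length, so levels can be set side by side between genes. The order among copies also rests on how their shared reads were assigned, which is not known, and is uncertain for that reason. In the undeleted lox hepatocytes Serpina3k was highest at 5580 RPKM ± 1745 (SD, n = 3), followed by Serpina1c at 3080 ± 160, Serpina1b at 2592 ± 172, Serpina1e at 1958 ± 1471, Serpina1a at 1550 ± 185 and Serpina1d at 1190 ± 214. Serpina6 (134 ± 79.8), Serpina10 (119 ± 9.83), Serpina3n (113 ± 12.3) and Serpina3m (55.6 ± 15.4) were lower. The ranges of Serpina1a and Serpina1d overlapped, as did those of Serpina6, Serpina10 and Serpina3n, so the order within these sets lies inside their spread. Serpina1e has no stable place in this order, since lox library 1 held 283 RPKM and lox libraries 2 and 3 held 3039 and 2551 RPKM. Serpina3k made up 96.8% ± 1.17 of the Serpina3 sum in lox libraries.

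**Figure D1:**
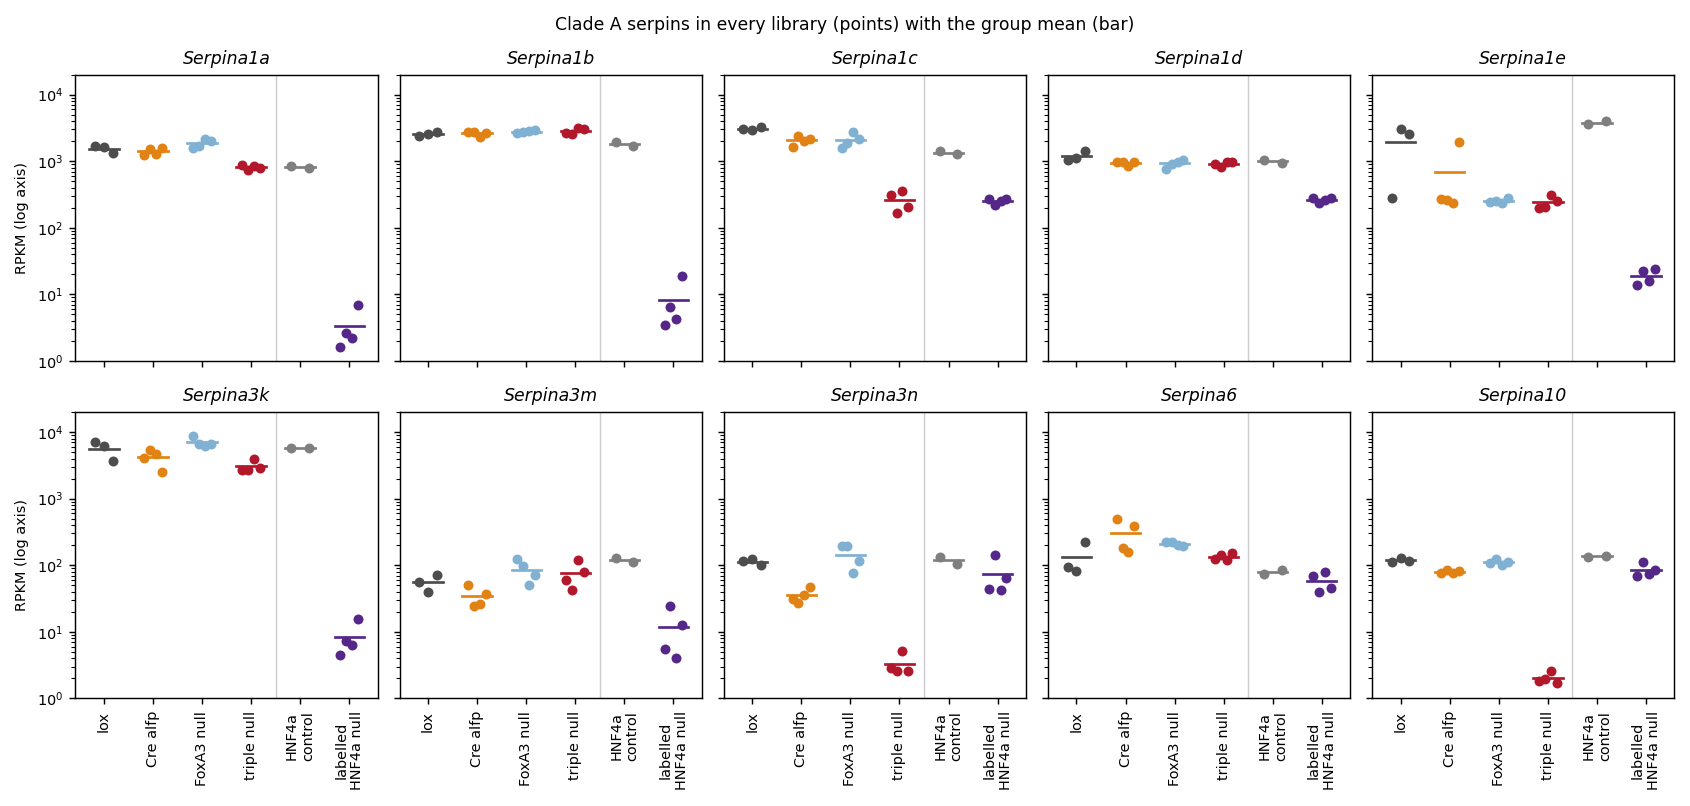
RPKM (log axis) of each serpin in every library (points), with the group mean as a bar; hepatocyte groups stand left of the grey line and liver groups right of it. In the triple null column Serpina10 and Serpina3n lie between 1.69 and 5.15 RPKM, and every other column starts higher, at 27.6 RPKM for the lowest library, while Serpina1a, Serpina1b and Serpina3k lie at 1.60 to 18.9 RPKM in the libraries labelled HNF4a null.

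The main comparison asked what the loss of FoxA1 and FoxA2 did in hepatocytes that already lacked FoxA3. Serpina10, Serpina3n and Serpina1c nearly disappeared or fell steeply in the triple null, Serpina3k and Serpina1a fell to under 45% of their level, and Serpina1b and Serpina1d kept theirs within the spread. A gene was called when limma gave a Benjamini-Hochberg adjusted p under 0.05 over all tested genes and a difference of at least 1 in log2(RPKM + 1). By this rule 5 of 10 members were called lower and none higher, where 3.95% of all 11500 tested genes were called lower and 4.17% higher. The median difference of the 10 members was -0.91, against 0.05 over all tested genes. The labels do not say that libraries of a group came from separate animals, so the p-values measure a spread between libraries. That spread was estimated for each gene over all 15 hepatocyte libraries. Each SE and p-value here therefore also carries the spread within the lox and Cre alfp groups.

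Serpina10, the factor Xa inhibitor, and Serpina3n had the largest losses, which lay within a standard error of each other. For Serpina10 the 4 triple null values were 1.85, 1.99, 2.59 and 1.69 RPKM, and the 4 FoxA3 null values were 108, 125, 103 and 111 RPKM. All triple null libraries were far below all controls, and the triple null kept 1.82% of the control mean (log2 difference -5.22 ± 0.11 SE, limma adjusted p = 3.93e-13). Serpina6, its neighbour in the cluster and the carrier of corticosteroids, had triple null values of 123, 144, 120 and 151 RPKM and FoxA3 null values of 221, 220, 200 and 196 RPKM. The groups did not overlap, as was so for 11.8% of all tested genes in the lower direction, but the difference was not called (64.3% of the control mean, log2 difference -0.64 ± 0.35 SE, limma adjusted p = 0.183). That SE and p-value also carry the spread of Serpina6 in lox (SD 79.8 RPKM) and Cre alfp libraries (SD 164 RPKM). Within the groups compared the SD was 15.5 RPKM for the triple null and 13.1 RPKM for the FoxA3 null.

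Among the Serpina3 copies, Serpina3n had triple null values of 2.89, 2.60, 5.15 and 2.55 RPKM. With FoxA1 and FoxA2 present it was at 194, 192, 77.5 and 115 RPKM, so even the lowest control was far above the highest triple null library. The triple null kept 2.28% of the control mean (log2 difference -5.02 ± 0.28 SE, limma adjusted p = 8.27e-09). Serpina3k had the highest mean of the 10 in both groups, although its triple null range overlapped that of Serpina1b. It was at 2714, 2725, 3951 and 2900 RPKM against 8808, 6530, 6161 and 6606 RPKM. The groups did not overlap, and the triple null kept 43.7% (log2 difference -1.20 ± 0.24 SE, limma adjusted p = 0.00209). Serpina3m was spread widely in both groups, from 42.1 to 122 RPKM in the triple null and from 49.9 to 125 RPKM in the controls. It was not called (log2 difference -0.21 ± 0.34 SE, limma adjusted p = 0.683). The Serpina3 sum, which follows Serpina3k, was 3151 RPKM ± 625 (SD, n = 4) against 7257 ± 1270, or 43.4% of the control. Serpina3n is an acute phase gene, and other acute phase genes differed in both directions in the same libraries. Lcn2, a siderophore-binding protein, averaged 742 RPKM ± 201 (SD, n = 4) in triple null hepatocytes and 21.4 ± 12.7 in those lacking FoxA3 alone. Saa1 and Saa2, serum amyloid A proteins, rose by 3.60 ± 0.59 SE (limma adjusted p = 0.000435) and 3.43 ± 0.71 SE (limma adjusted p = 0.00248) on the log2 scale. Haptoglobin, Hp, fell like Serpina3n, from 2404 RPKM ± 1069 to 398 ± 239 (-2.70 ± 0.43 SE, limma adjusted p = 0.000297), as did the fibrinogen chains Fga (-1.33 ± 0.19 SE, limma adjusted p = 0.000113) and Fgb (-1.05 ± 0.14 SE, limma adjusted p = 7.03e-05). These falling genes were named after their values had been seen. The interleukin 6 list that holds all of them had 5 of 17 tested genes called higher and 4 lower, with a median difference of -0.34, and its part in the Serpina3n result was not tested.

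The 5 Serpina1 copies parted ways. Serpina1c had triple null values of 308, 167, 362 and 205 RPKM, far under the 1601, 1852, 2707 and 2137 RPKM of FoxA3 null hepatocytes. Every triple null library was below every control, and 12.6% of the control mean was kept (log2 difference -3.03 ± 0.22 SE, limma adjusted p = 2.1e-07). Serpina1a was at 866, 734, 855 and 800 RPKM against 1589, 1698, 2146 and 1990 RPKM, again with no overlap. It kept 43.8% (log2 difference -1.18 ± 0.13 SE, limma adjusted p = 9.62e-06). Serpina1b was at 2650, 2594, 3096 and 3077 RPKM in the triple null and at 2608, 2721, 2874 and 2895 RPKM in the controls. These ranges overlapped (103% of the control mean, log2 difference 0.04 ± 0.10 SE, limma adjusted p = 0.811). Serpina1d, at 815 to 964 RPKM against 757 to 1058 RPKM, and Serpina1e, at 201 to 315 RPKM against 234 to 276 RPKM, overlapped too. Their log2 differences were -0.02 ± 0.13 SE (limma adjusted p = 0.909) and -0.06 ± 0.71 SE (limma adjusted p = 0.962). The SE of Serpina1e also carries its wide spread in lox (SD 1471 RPKM) and Cre alfp libraries (SD 850 RPKM).

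The Serpina1 sum was 4922, 4517, 5587 and 5298 RPKM in the triple null and 6796, 7442, 8942 and 8356 RPKM in the FoxA3 null libraries, which did not overlap. The triple null mean was 64.4% of the control mean. The make-up of the sum moved with it: Serpina1b was 35.4% ± 2.67 (SD, n = 4) of the sum in the FoxA3 null and 56.2% ± 1.93 in the triple null, while Serpina1c was 26.1% ± 2.92 and 5.08% ± 1.50. Because copies share reads, these shares are those of the deposited values.

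**Figure D2:**
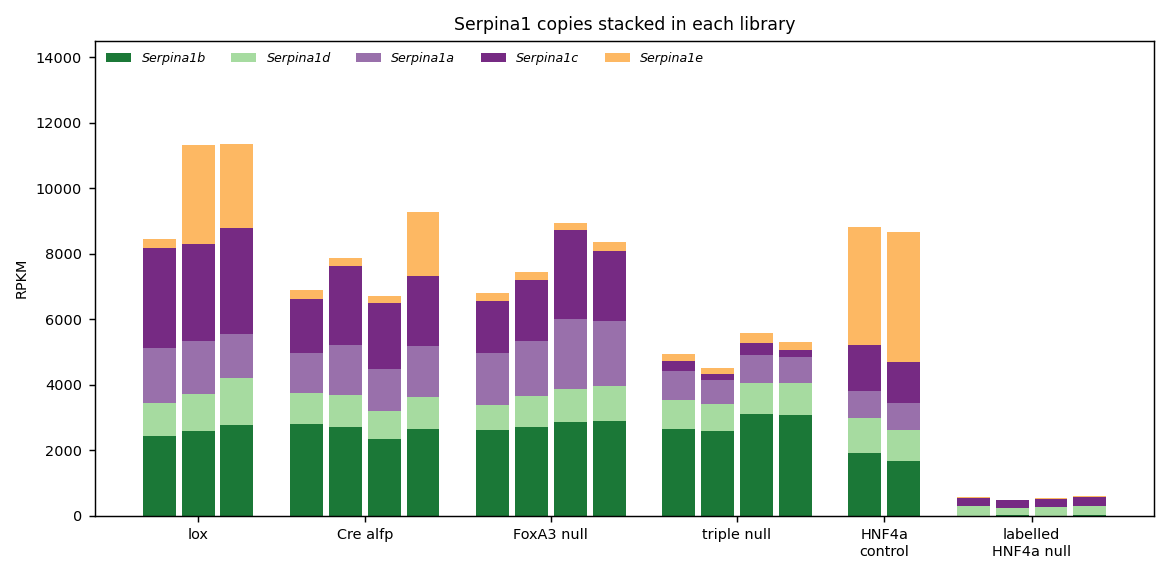
RPKM of the 5 Serpina1 copies stacked in every library, which makes the bar height the Serpina1 sum. The triple null bars reach 4517 to 5587 RPKM with a thin Serpina1c layer, the Serpina1e layer is thick in lox libraries 2 and 3, Cre alfp library 4 and both HNF4a controls, and the libraries labelled HNF4a null reach 492 to 599 RPKM.

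Deletion of FoxA1 and FoxA2 with FoxA3 present was read from Cre alfp against lox hepatocytes. Serpina3n fell and was the member called, 1 of 10, where 1.1% of all tested genes were called lower. The Cre alfp values were 31.2, 27.6, 35.2 and 47.9 RPKM, and the lox values were 115, 125 and 100 RPKM. The groups did not overlap, and Cre alfp kept 31.3% of the lox mean (log2 difference -1.67 ± 0.30 SE, limma adjusted p = 0.00445). Serpina10 was at 76.4, 84.8, 75.8 and 81.1 RPKM against 113, 130 and 114 RPKM, without overlap. Its difference of -0.58 ± 0.11 SE (66.8% of lox) had a limma adjusted p of 0.00925 but was smaller than the minimum of 1. Serpina1c (66.5% of lox, limma adjusted p = 0.192) and Serpina1d (78.5%, limma adjusted p = 0.199) did not overlap between the groups and were not called. No overlap in the lower direction was seen for 8.63% of all tested genes. The median difference of the members was -0.50, and that of all tested genes was 0.02.

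Serpina6 went the other way in its values, at 501, 183, 161 and 383 RPKM in Cre alfp and 94.0, 82.1 and 226 RPKM in lox libraries. The ranges overlapped and the difference was not called (log2 difference 1.18 ± 0.37 SE, limma adjusted p = 0.0872). Without lox library 3 it was 1.63 with a limma adjusted p of 0.0182, and without Cre alfp library 3 it was 1.44 with a limma adjusted p of 0.0486, so single libraries decide this call. Serpina1e had Cre alfp values of 268, 257, 235 and 1954 RPKM, with lox values of 283, 3039 and 2551 RPKM. Each group thus held both low and high libraries (log2 difference -1.62 ± 0.77 SE, limma adjusted p = 0.281). Without lox library 1 the difference was -2.72 with a limma adjusted p of 0.0408, and without Cre alfp library 4 it was -2.36 with a limma adjusted p of 0.0468. The Serpina1 sum (74.1% of lox) and the Serpina3 sum (73.5%) overlapped between the groups.

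**Figure D3:**
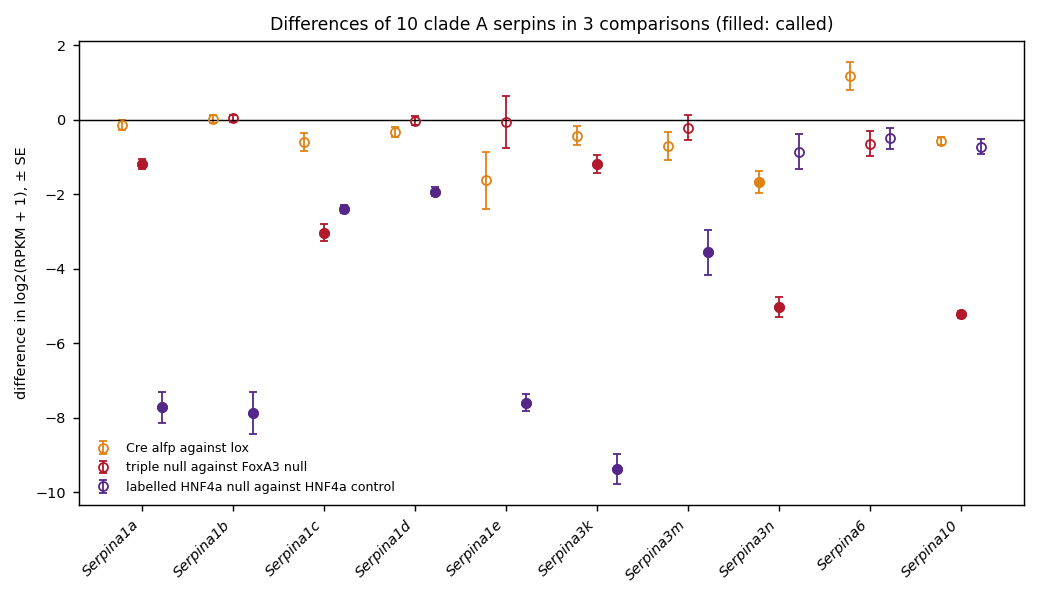
Difference in log2(RPKM + 1) of each serpin with its standard error in Cre alfp against lox, triple null against FoxA3 null, and libraries labelled HNF4a null against HNF4a control; filled points were called. Serpina10 and Serpina3n lie lowest in the triple null comparison (-5.22 and -5.02), and Serpina3k lies lowest in the HNF4a comparison (-9.37).

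Whether the triple null comparison and the Cre alfp comparison differed was tested as the difference between them. The deletions also differ in the Cre used and in the virus, which the labels mention for the triple null and its controls, and in the age at deletion, which is not given for Cre alfp, so FoxA3 status cannot be told apart from these in this test. It was called toward a larger loss in the triple null comparison for 5 of 10 members, where 3.54% of all tested genes were called in that direction. The extra log2 loss was -4.65 ± 0.16 SE for Serpina10 (limma adjusted p = 4.41e-10), -3.35 ± 0.41 SE for Serpina3n (limma adjusted p = 9.59e-05) and -2.43 ± 0.33 SE for Serpina1c (limma adjusted p = 0.000282). For these 3 genes the call held in every alternative computed. Serpina6 (-1.82 ± 0.51 SE, limma adjusted p = 0.0298) combined a lower triple null mean with a higher Cre alfp mean, and neither of those differences was called alone. Its call was lost without the filter on low values (limma adjusted p = 0.0806) and with a replicate block. It was also lost without any of 6 single libraries, with limma adjusted p-values of 0.0501 to 0.0825. Serpina1a (-1.03 ± 0.19 SE, limma adjusted p = 0.00242) lay so close to the minimum difference that leaving out any of 6 single libraries put it under that minimum, with -0.93 as the smallest size (without lox library 3). Serpina3k was not called (-0.77 ± 0.36 SE, limma adjusted p = 0.163), nor were Serpina1b, Serpina1d, Serpina1e and Serpina3m.

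The remaining comparisons crossed the sets of libraries that stood apart, and that gap cannot be told apart from the genotype in them. Over all tested genes the median difference in these comparisons was 0.10 for FoxA3 null against lox, 0.13 for triple null against lox and 0.13 for triple null against Cre alfp. With FoxA3 missing and FoxA1 and FoxA2 present, Serpina1c was at 67.3% of the lox mean and was not called (log2 difference -0.60 ± 0.24 SE, limma adjusted p = 0.0694). Serpina10 was at 93.9% of lox (log2 difference -0.09 ± 0.11 SE, limma adjusted p = 0.559). Of the 10 members, 1 was called lower, where 3.56% of all tested genes were: Serpina1e, at 234 to 276 RPKM against 283, 3039 and 2551 RPKM (log2 difference -2.37 ± 0.77 SE, limma adjusted p = 0.0288). Without lox library 2 this call was lost (-1.76, limma adjusted p = 0.138), as it was without lox library 3 (limma adjusted p = 0.102), FoxA3 null library 1 (limma adjusted p = 0.0586) or FoxA3 null library 2 (limma adjusted p = 0.0542). The Serpina1 sum was at 76.0% of lox and the Serpina3 sum at 126%, and both overlapped.

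Against lox, the triple null had 4 of 10 members called lower (Serpina1c, Serpina1e, Serpina3n and Serpina10), where 5.81% of all tested genes were called lower. Serpina1a (-0.92 ± 0.14 SE, limma adjusted p = 0.000122) failed only the minimum difference, and was -1.06 relative to the median gene. Serpina3k (-0.82 ± 0.26 SE, limma adjusted p = 0.0211) and Serpina1d (-0.38 ± 0.14 SE, limma adjusted p = 0.0393) also failed only that minimum. Serpina1e was called here although the lowest lox library lay inside the triple null range, and without lox library 2 or 3 its limma adjusted p was 0.108 or 0.0857. The Serpina1 sum was at 49.0% of lox, and the Serpina3 sum was at 54.8%, with overlap. Against Cre alfp, 4 members were called lower (Serpina1c, Serpina3n, Serpina6 and Serpina10) and 1 higher (Serpina3m). Of all tested genes, 5.03% were called lower and 5.26% higher in that comparison. The mean Serpina1 sum was 5081 RPKM in the triple null and 7686 RPKM in Cre alfp libraries, and the mean Serpina3 sum was 3151 and 4224 RPKM. Serpina10 differed by -4.74 ± 0.11 SE (limma adjusted p = 3.07e-13) and Serpina3n by -3.10 ± 0.28 SE (limma adjusted p = 1.29e-06). The Serpina3m difference of 1.07 ± 0.34 SE (limma adjusted p = 0.0222) was 0.94 relative to the median of all tested genes. It was not called in 7 alternatives, among them quantile normalization (0.90, limma adjusted p = 0.0503) and leaving out triple null library 3 (0.80, limma adjusted p = 0.0769). The Serpina6 difference of -1.03 ± 0.35 SE (limma adjusted p = 0.0283) was lost without Cre alfp library 1 (-0.74, limma adjusted p = 0.0934), Cre alfp library 4 (-0.87, limma adjusted p = 0.0771), triple null library 1 (-0.99, limma adjusted p = 0.0572) or triple null library 3 (-0.98, limma adjusted p = 0.0677).

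In liver labelled HNF4a null the order of losses was different. Serpina3k, Serpina1a, Serpina1b and Serpina1e fell to under 1% of their control means, Serpina3m, Serpina1c and Serpina1d fell less, and Serpina10, Serpina3n and Serpina6 were not called. By the same rule 7 of 10 members were called lower, where 5.95% of all 12434 tested genes were called lower and 8.58% higher. The median member difference was -2.98, while over all tested genes the median was 0.34, so that differences relative to that median are about that much larger. With 2 control libraries the spread of the controls rests on a single pair.

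Serpina3k was at 5760 and 5693 RPKM in control liver, and liver labelled HNF4a null held 4.45, 7.39, 6.35 and 15.6 RPKM. Its remaining level was 0.147% of the control mean (log2 difference -9.37 ± 0.40 SE, -9.71 relative to the median gene, limma adjusted p = 9.95e-06). Serpina3m was at 130 and 113 RPKM against 5.55, 24.1, 4.11 and 12.9 RPKM, or 9.59% (log2 difference -3.56 ± 0.61 SE, limma adjusted p = 0.0036), and 6.17% without library GGCTAC, the second of these, named by its barcode. Serpina3n was at 133 and 103 RPKM against 44.1, 141, 42.6 and 63.7 RPKM. Library GGCTAC, labelled HNF4a null, lay above both controls, and the difference was not called (-0.86 ± 0.47 SE, limma adjusted p = 0.165). Without that library it was -1.23 with a limma adjusted p of 0.00635. Serpina3n made up 78.2% ± 6.07 (SD, n = 4) of the Serpina3 sum in the libraries labelled HNF4a null and 1.98% in the controls. That sum averaged 93.0 RPKM against 5966 RPKM in the controls, or 1.56%.

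Serpina1a was at 844 and 799 RPKM in control liver, and liver labelled HNF4a null held 1.60, 2.61, 2.18 and 6.96 RPKM (0.407%, log2 difference -7.71 ± 0.42 SE, limma adjusted p = 2.85e-05). Serpina1b was at 1924 and 1674 RPKM against 3.43, 6.54, 4.24 and 18.9 RPKM (0.461%, log2 difference -7.87 ± 0.57 SE, limma adjusted p = 0.000106). Library TAGCTTA, the last in both lists, raised these shares: without it Serpina1a kept 0.259% and Serpina1b 0.263%. Serpina1e was at 3592 and 3957 RPKM against 13.6, 22.3, 15.8 and 24.3 RPKM (0.504%, log2 difference -7.59 ± 0.23 SE, limma adjusted p = 2.76e-06). In contrast to these near losses, Serpina1c was at 1404 and 1273 RPKM against 266, 223, 255 and 270 RPKM (19.0%, log2 difference -2.40 ± 0.12 SE, limma adjusted p = 1.78e-05). Serpina1d was at 1051 and 955 RPKM against 283, 238, 257 and 278 RPKM (26.3%, log2 difference -1.92 ± 0.11 SE, limma adjusted p = 4.02e-05). Serpina1c and Serpina1d together made up nearly the whole remaining sum, with shares of 46.3% ± 1.24 and 48.2% ± 1.36 (SD, n = 4). The Serpina1 sum was 8815 and 8659 RPKM in control liver against 567, 492, 534 and 599 RPKM, which is 6.28% of the control mean. Whether reads of other copies were assigned to Serpina1c and Serpina1d was not tested.

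Serpina10, nearly absent in the triple null, had values of 68.5, 111, 73.0 and 83.6 RPKM in liver labelled HNF4a null, against 135 and 138 RPKM in control liver. The groups did not overlap, as for 14.4% of all tested genes in the lower direction. Its difference of -0.72 ± 0.19 SE (61.5% of the control, limma adjusted p = 0.0197) stayed under the minimum of 1, and was -1.06 relative to the median gene. Serpina6 was at 68.3, 39.9, 78.7 and 45.3 RPKM against 74.0 and 85.01 RPKM, which overlapped (73.0%, log2 difference -0.50 ± 0.28 SE, limma adjusted p = 0.171).

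**Figure D4:**
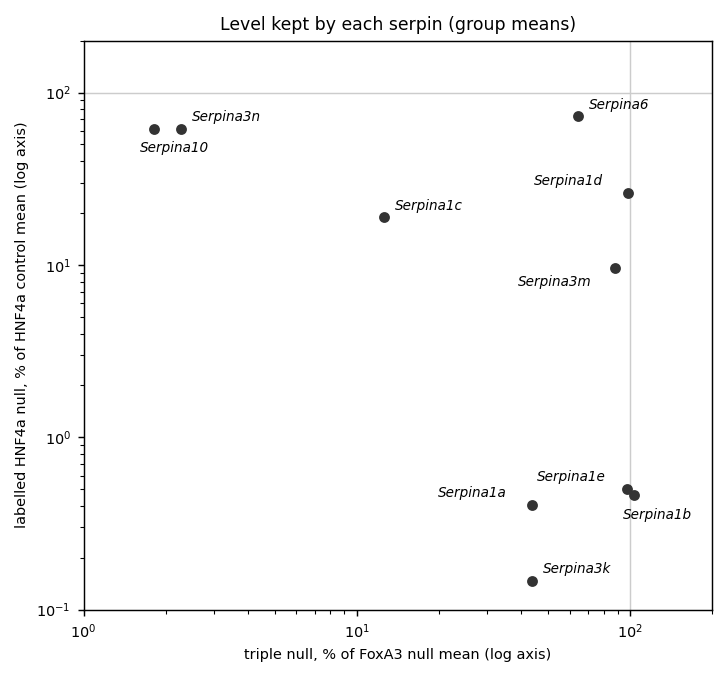
Mean level of each serpin in the triple null as a percentage of FoxA3 null (x, log axis) against its mean level in the libraries labelled HNF4a null as a percentage of HNF4a control (y, log axis); grey lines mark no change. Serpina10 and Serpina3n kept 1.82% and 2.28% on the x axis and 61.5% and 61.8% on the y axis, while Serpina1b kept 103% and 0.461% (0.263% without library TAGCTTA); the comparisons used other tissue preparations, and the difference between them was not tested.

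The other serpins and the partners of serpins were described by lists of genes. Of 5 tested clade A serpins that are not members, 1 was called higher in the triple null and none lower: Serpina7, thyroxine-binding globulin, at 31.6, 99.6, 58.0 and 40.4 RPKM against 14.5, 10.1, 11.6 and 35.7 RPKM in the FoxA3 null. These ranges overlapped (log2 difference 1.67 ± 0.52 SE, limma adjusted p = 0.0273). Of 13 tested serpins of other clades, 4 were called lower and none higher, with a median difference of -0.65. Serpind1, heparin cofactor II, fell from 221 to 22.5 RPKM (-3.24 ± 0.13 SE, limma adjusted p = 3.72e-10), and Serpinf2, the inhibitor of plasmin, fell from 258 to 43.1 RPKM (-2.61 ± 0.17 SE, limma adjusted p = 5.57e-08). Serpinc1, antithrombin, fell from 876 to 348 RPKM (-1.33 ± 0.10 SE, limma adjusted p = 2.66e-07). None of these 13 was called in Cre alfp against lox.

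Among 17 tested proteases and cofactors that serpins act with, 9 were called lower and 1 higher in the triple null, with a median difference of -1.06. F11, coagulation factor XI, fell from 30.7 to 0.831 RPKM (-4.11 ± 0.21 SE, limma adjusted p = 3.74e-09), and C1s, a complement protease, fell from 158 to 16.7 RPKM (-3.18 ± 0.31 SE, limma adjusted p = 3.67e-06). Prtn3, proteinase 3 of neutrophils, was the gene that rose, from 1.40 ± 1.45 to 41.5 RPKM ± 25.3 (SD, n = 4; log2 difference 4.14 ± 0.53 SE, limma adjusted p = 5.07e-05). Neutrophil markers moved with it: the summed level of 9 markers was 9.68 to 112 RPKM in the triple null and 0.852 to 2.03 RPKM in the FoxA3 null libraries, with S100a8 and S100a9 called higher, of which S100a9 passed the filter on low values only through the triple null libraries. In the triple null 6 of the 9 markers were under 1 RPKM in every library, and their part in the serpin results was not tested. Of the other marker lists, hepatocyte markers had 5 of 10 tested genes called lower and 1 higher, sinusoidal endothelium markers 3 of 7 lower, stellate and fibroblast markers 2 of 4 lower, Kupffer and macrophage markers 0 of 6 and cholangiocyte markers 0 of 2 called, and no lymphocyte marker passed the filter. Proz, the cofactor protein Z of Serpina10, fell too, from 100 RPKM ± 25.3 to 16.4 ± 4.53 (-2.54 ± 0.20 SE, limma adjusted p = 4.89e-07), and was named for that role after its values had been seen. In Cre alfp against lox, 2 of the 17 were called lower, F11 (-1.32 ± 0.23 SE, limma adjusted p = 0.00347) and Hgfac (-1.04 ± 0.09 SE, limma adjusted p = 1.3e-05).

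Of 20 tested genes for folding and secretion of serpins, none was called in the triple null, with a median difference of -0.01. In Cre alfp against lox, 6 of the 20 were called lower and none higher. The endoplasmic reticulum chaperone Hspa5 fell from 587 RPKM ± 314 to 177 ± 31.2 (-1.59 ± 0.31 SE, limma adjusted p = 0.00821), Hyou1 by -1.73 ± 0.32 SE (limma adjusted p = 0.00536) and the ubiquitin ligase Syvn1 by -1.76 ± 0.43 SE (limma adjusted p = 0.0293). In FoxA3 null against lox, where FoxA1 and FoxA2 are intact, 4 of the 20 were also called lower, among them Syvn1 (-1.74 ± 0.43 SE, limma adjusted p = 0.00827), Sel1l (-1.70 ± 0.23 SE, limma adjusted p = 0.000262) and Hsp90b1 (-1.11 ± 0.21 SE, limma adjusted p = 0.00218). In triple null against lox 3 of the 20 were called lower. Of 15 tested glucocorticoid-response genes, which bear on the hormone that Serpina6 carries, 2 were called lower and 2 higher in the triple null. The called genes included Mt2 (2.81 ± 0.67 SE, limma adjusted p = 0.00604), Mt1 (2.04 ± 0.50 SE, limma adjusted p = 0.00712) and Gadd45b (-2.09 ± 0.45 SE, limma adjusted p = 0.00299). None of the 15 was called in Cre alfp against lox.

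In the libraries labelled HNF4a null, 2 of 6 tested clade A serpins outside the 10 were called lower and 1 higher. Serpina4-ps1, a pseudogene, was at 0.0126 to 0.0710 RPKM against 95.2 and 387 RPKM in the controls (-7.52 ± 0.48 SE, limma adjusted p = 6.13e-05), and Serpina12, vaspin, was at 0.213 to 0.438 RPKM against 13.0 and 15.2 RPKM (-3.49 ± 0.13 SE, limma adjusted p = 6.5e-06). Serpina7 rose from 21.0 and 25.3 RPKM to between 315 and 474 RPKM (4.05 ± 0.17 SE, limma adjusted p = 9.95e-06). Of 12 tested serpins of other clades 5 were called lower and none higher. Serpinf1, pigment epithelium-derived factor, fell from 377 to 25.3 RPKM (-3.86 ± 0.16 SE, limma adjusted p = 8.92e-06), followed by Serpinf2 (-2.34 ± 0.32 SE, limma adjusted p = 0.00142) and Serpinb1a (-1.51 ± 0.23 SE, limma adjusted p = 0.0023). Of 18 tested proteases and cofactors 6 were called lower and 2 higher. Proz fell from 109 to 1.64 RPKM (-5.38 ± 0.11 SE, limma adjusted p = 5.85e-07), followed by F11 (-2.56 ± 0.15 SE, limma adjusted p = 3.9e-05) and C1s (-2.37 ± 0.56 SE, limma adjusted p = 0.012). None of the 20 folding and secretion genes was called there, while 1 of 15 glucocorticoid-response genes was called lower and 4 higher, and 2 of 17 interleukin 6 genes lower and 3 higher. Of the genes called higher, 1 protease or cofactor and 1 glucocorticoid-response gene passed the filter only through the libraries labelled HNF4a null. Markers of cell types moved with these results. Hepatocyte markers had 5 of 10 called lower and 2 higher, with Asgr1 (-4.89 ± 0.22 SE, limma adjusted p = 1.14e-05), Apob (-3.13 ± 0.10 SE, limma adjusted p = 2.8e-06) and Trf (-1.63 ± 0.14 SE, limma adjusted p = 0.000195) changed most. Their summed level was 17937 to 23309 RPKM against 29439 and 29818 RPKM. The summed level of 8 cholangiocyte markers was 132 to 230 RPKM against 16.7 and 17.0 RPKM, and that of 9 neutrophil markers was 3.36 to 15.2 RPKM against 1.26 and 2.15 RPKM. No count of called genes is read for these lists, since 4 of the 6 tested cholangiocyte markers and both tested neutrophil markers passed the filter on low values only through the libraries labelled HNF4a null. Marco, 1 of 7 tested Kupffer and macrophage markers, was called higher. No stellate, sinusoidal or lymphocyte marker was called among 9, 8 and 1 tested. Summed levels were still higher for stellate and fibroblast markers, at 138 to 158 RPKM against 112 and 125 RPKM. Sinusoidal markers summed to 164 to 184 RPKM against 127 and 148 RPKM, and Kupffer and macrophage markers to 110 to 140 RPKM against 89.1 and 99.4 RPKM. The part of these shifts in the serpin results was not tested.

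The genes whose log2(RPKM + 1) followed a serpin most closely over the 15 hepatocyte libraries were named by Pearson's r, as a description over libraries that share groups. For the Serpina1 sum they were Ang (r = 0.96), Ces3b (r = 0.95) and Gpld1 (r = 0.93). For Serpina3n they were Ces1g (r = 0.99), Slc26a1 (r = 0.99) and Ido2 (r = 0.98). Ces1g had means of 0.774, 55.0, 36.8 and 11.7 RPKM in the triple null, FoxA3 null, lox and Cre alfp groups, beside 3.30, 144, 113 and 35.5 RPKM for Serpina3n. Ces1g was picked by its r over these same libraries, so the shared order of the means is no further result. For Serpina6 they were Limd2 (r = 0.88), 1300018J18Rik (r = 0.87) and Usp28 (r = 0.85).

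The study also set hepatocytes against earlier stages, and these comparisons are given as log2 fold changes from the authors' deposited tables, with a member counted at an adjusted p under 0.05. Afp was at 9.67 in the authors' deposited table of hepatoblasts and at 14.2 in that of newborns, and both were read as the earlier stage over the adult. Alb was at -4.69 in the authors' deposited table of hepatoblasts but at 1.43 in that of newborns, so the direction of the newborn table rests on Afp and on the name of the table. In the authors' deposited table of hepatoblasts against adult hepatocytes all 10 members were lower, where 37.9% of listed genes were. There Serpina1c had the lowest value (-6.17), followed by Serpina3k (-5.92) and Serpina1a (-5.56), and Serpina6 was nearest to the adult level (-1.26) in the authors' deposited table. In the authors' deposited table of newborn against adult hepatocytes 6 members were lower and 2 higher, where 31.7% and 31.6% of listed genes were. Serpina3k (-7.52), Serpina6 (-3.44) and Serpina1c (-2.97) were lowest in the newborn in the authors' deposited table, and the higher members were Serpina3m (1.89) and Serpina3n (1.83). Serpina10 was close to the adult level in that authors' deposited table (-0.26, adjusted p = 0.0941).

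In the authors' deposited table of the triple null against hepatoblasts 7 members were higher and 2 lower, where 37.6% and 43.6% of listed genes were. The lower members were Serpina10 (-2.19) and Serpina3n (-0.85). The direction of this authors' deposited table is not stated and was read from its values for Afp, a fetal liver gene (-8.78), and Alb, albumin (3.46), as triple null over hepatoblast. Serpina1b (4.99), Serpina3k (4.82) and Serpina3m (4.70) were highest above hepatoblasts in the authors' deposited table, and Serpina1e was not different by its test (0.25, adjusted p = 0.542). In the authors' deposited table of triple null against FoxA3 null, 6 members were lower, where 22.1% of listed genes were, and Serpina6 was the additional member (-0.68, adjusted p = 1.4e-07). In the authors' deposited table for HNF4a, 9 members were lower, where 24.9% of listed genes were, with Serpina10 at -1.12 and Serpina6 at -0.86. These tables have no minimum difference and were fitted by the authors, so their counts are not those of the fit above. In triple null against FoxA3 null, the fit above also took in the spread of Serpina6 in lox and Cre alfp libraries.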

How the data were processed

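RNA-seq RPKM values of 33773 genes were deposited by the authors in 1 matrix. The 21 columns that match the samples were used, and 9 columns that match no sample were not used. Per the submitters' processing notes the genome build was mm9 and the tools included SAMtools, Cufflinks 2.2.1 and DESeq2; the aligner, the annotation and the strand setting were not given in the sources used here. The authors' deposited tables of comparisons give a log2 fold change and a p-value per gene. The tables of triple null against FoxA3 null and of HNF4a had the direction of the matrix differences (Spearman 0.93 and 0.87 across genes), while the table of triple null against undeleted controls had the opposite sign (-0.94) and is not reported. An adjusted p-value missing from the Cre alfp table was computed by the Benjamini-Hochberg method.

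Values were analysed as log2(RPKM + 1), since RPKM are not counts, which understates fold changes of low genes. limma 3.58.1 in R 4.3.3 (lmFit, eBayes with a trend) was fitted over all 15 hepatocyte libraries (RPKM of at least 1 in at least 3) and separately over the 6 liver libraries (in at least 2), with Benjamini-Hochberg adjustment over all tested genes. All 10 members passed the filter in both fits. The interaction was (triple null minus FoxA3 null) minus (Cre alfp minus lox). Percentages kept are ratios of group means. Sums over copies were described and given no p-value. None of the 210 pairs of libraries held identical values. The fit was tested on simulated data, and no result of that test is used here.

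The members, the 13 gene lists and the tests were chosen with earlier results of these data known. All members were named, and of the serpin, protease and folding lists up to 3 called genes with the largest difference; marker, glucocorticoid and interleukin 6 genes were named for some comparisons, and genes named outside the 3 largest are marked as such. Promoter windows came from RefSeq tables (GRCm38.p6). The HNF4a peak list was not used, since its build differs. Alternatives tried were another pseudocount, no filter, quantile normalization, median scaling, no trend, no minimum difference, a replicate block, fits of the compared groups alone and leaving out each library.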

Additional observations from a re-analysis of the deposited data

Results flagged for a closer look

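In groups of 4 libraries, 6 of 48 sets of values held a library whose gap to its nearest neighbour exceeded Dixon's 95% limit. Chance gives about 1 in 20 for independent sets. These sets include the sums beside their own copies, so the count is not compared with that rate. Serpina1e in Cre alfp library 4 was at 1954 RPKM, and the other Cre alfp libraries were at 235 to 268 RPKM. Serpina1d in Cre alfp library 3 was at 851 RPKM, below 957 to 965 RPKM in the rest. Triple null library 3 stood high for Serpina3k (3951 RPKM), Serpina3n (5.15 RPKM) and the Serpina3 sum (4078 RPKM). FoxA3 null library 1 stood high for Serpina3k (8808 RPKM).

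The difference between triple null and FoxA3 null hepatocytes was not that between Cre alfp and lox hepatocytes, by the limma interaction term, for Serpina10 (-4.65), Serpina3n (-3.35), Serpina1c (-2.43), Serpina6 (-1.82) and Serpina1a (-1.03). The calls of Serpina6 and Serpina1a were lost when certain single libraries were left out, and that of Serpina6 also with a replicate block. The hepatocytes without and with FoxA3 also belong to the sets of libraries that stood apart, and each deletion was compared within its own set. The Cre, the virus and possibly the age at deletion change together with FoxA3 status and cannot be told apart from it.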

How the results depend on the processing

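Of 760 alternative values for 47 member results, 719 kept their side of the threshold, of which 698 also kept their direction and 21 turned in sign without being called, 34 lost a call, 7 gained one and none of the called values turned. The count of members called in triple null against FoxA3 null was 5 in every alternative. With no minimum difference the count was 2 in Cre alfp against lox and 7 in triple null against lox. That setting also adds Serpina10 for HNF4a, where its difference failed only the minimum. Without the filter the count was 0 in FoxA3 null against lox and 3 in triple null against Cre alfp, where more genes share the adjustment. Leaving out single libraries gave 1 to 2 members in Cre alfp against lox, 3 to 5 for the interaction (3 without Cre alfp library 4), 0 to 1 in FoxA3 null against lox, 3 to 5 in triple null against lox, 3 to 5 in triple null against Cre alfp (3 without triple null library 3) and 7 to 8 for HNF4a; the cause was not tested. Under median scaling the Serpina1 sum in the libraries labelled HNF4a null was -4.26 on the log2 scale, a larger loss by more than the spread between libraries. The replicate numbers did not pair the libraries: 21 same-numbered pairs had correlations of -0.36 to 0.17, 3 of them over 0.1, and 0 of 15 libraries correlated best with their own number. With a replicate block the calls over all genes were 919 against 933 for the triple null over FoxA3 null comparison and 229 against 274 for Cre alfp over lox, and among the members Serpina6 lost its interaction call (-1.76, limma adjusted p = 0.0608). No paired analysis was possible because the columns carry barcodes in the HNF4a libraries. Over all genes, 182 against 274 were called in Cre alfp against lox when those groups were fitted alone, and 1303 against 827 in FoxA3 null against lox with a pseudocount of 0.1. With no minimum difference 3413 against 933 were called in triple null against FoxA3 null, 628 against 274 in Cre alfp against lox, 1658 against 784 for the interaction, 4001 against 827 in FoxA3 null against lox, 4891 against 1556 in triple null against lox, 4743 against 1184 in triple null against Cre alfp and 6569 against 1807 for HNF4a. Median scaling moved the share of lower calls from 41% to 65.8% for HNF4a, from 49.5% to 63.7% in FoxA3 null against lox, from 42.9% to 54.9% in triple null against lox and from 48.9% to 60.4% in triple null against Cre alfp, and quantile normalization moved it to 60.6% for HNF4a. Absolute depth is unknown, which leaves values near 2 RPKM without a counting error.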

Other observations

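Serpina1e took a low or a high level in lox (283, 3039 and 2551 RPKM) and Cre alfp libraries (268, 257, 235 and 1954 RPKM). Serpina7, thyroxine-binding globulin, was at 5.84, 18.3 and 16.0 RPKM in the same lox libraries and at 3.26, 2.57, 3.93 and 15.2 RPKM in the same Cre alfp libraries, so that the libraries with high Serpina1e were also those with high Serpina7 there. In the FoxA3 null libraries Serpina1e stayed at 234 to 276 RPKM while Serpina7 ranged from 10.1 to 35.7 RPKM, and in the triple null Serpina1e stayed at 201 to 315 RPKM with Serpina7 at 31.6 to 99.6 RPKM. All 21 libraries held the male transcript Ddx3y, at 14.9 to 32.9 RPKM, and the female transcript Xist was at 0.363 RPKM or less. Within the lox and Cre alfp libraries Xist was highest, at 0.316 and 0.293 RPKM, in lox library 2 and Cre alfp library 4, which held high Serpina1e, and at 0.0910 RPKM in lox library 3, which held high Serpina1e too. Among those with low Serpina1e, Xist was at 0.0923 RPKM in lox library 1 and at 0.101, 0.0558 and 0.0347 RPKM in Cre alfp libraries 1, 2 and 3. The highest Xist of all, 0.363 RPKM, was in triple null library 4, where Serpina1e was at 253 RPKM. All these Xist values are low, and a link to Serpina1e was not tested. Serpina11, a clade A gene next to Serpina1e in the cluster, was at 138, 119 and 71.9 RPKM in lox and 167, 185, 194 and 68.6 RPKM in Cre alfp libraries, lowest in lox library 3 and Cre alfp library 4.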
